A study of Rattus norvegicus with 12 samples.

Results

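Forkhead (Fox) and Sox genes encode DNA-binding transcription factors, and 43 of the 14506 genes measured by a probe set with a single gene symbol belong to these families. They comprise 29 genes whose symbol is Fox, a letter and a number, and 14 whose symbol is Sox and a number. For a gene with several probe sets the brightest was used. Of the 43 genes, 27 lay above a limit on dim genes and were tested, and 16 were dim and are described by value only. Expression was measured in whole uterus of young adult Lewis rats that had been ovariectomized, and so lacked their main source of estrogens in every group, in 4 groups of 3 rats with 1 Affymetrix array per rat. The vehicle group received DMSO, and the E2 group received 17β-estradiol at 4 µg/kg per day. The 3-MC group received 3-methylcholanthrene, a ligand of the aryl hydrocarbon receptor (AhR) and a polycyclic hydrocarbon, at 15 mg/kg per day, and the E2+3-MC group received both compounds. Dosing lasted 3 days, and the uterus was collected 24 h after the final dose.

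Forkhead proteins bind DNA through a winged-helix domain, and Sox proteins through an HMG box that bends it. In the uterus, FOXA2 is required for glands to form and function, FOXO1 acts in decidualization and is restrained by growth factor signalling, FOXJ1 drives motile cilia, and FOXM1 drives the cell cycle. SOX7, SOX17 and SOX18 form the SoxF group of endothelial factors, with SOX17 also made in uterine epithelium, while SOX10 marks Schwann cells and SOX5 and SOX6 (SoxD) act in cartilage and in many stromal cells. Estradiol acts on the uterus through its receptor, which binds estrogen response elements, and makes the tissue swell and its epithelium proliferate.

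Array medians ranged from 86.3 to 124 intensity units. The lowest pair of medians was in E2 rats 2 and 3 (86.9 and 86.3). Values were spread most widely in vehicle rat 1: between quartiles they spanned 2.70 log2 units, and 1.87 to 2.35 on the other 11 arrays. It gave the highest of all 12 values for 16 of the 27 tested Fox and Sox genes (59.3%), against 52% of all genes tested. After quantile normalization, which forces the arrays to a common distribution, these shares were 22.2% and 23.7%. Each Fox and Sox result below is therefore given on the deposited scale. For E2 minus vehicle and E2+3-MC minus 3-MC, the quantile-normalized value or call is added where it changes the call. In these comparisons a result is also given without vehicle rat 1 where that library decides the call. For E2+3-MC minus vehicle, the members called after quantile normalization are named. For gene lists, the quantile-normalized count is given where it differs from a count with 3-MC present. Of all genes tested, 9.44% were called lower and 8.7% higher in E2 minus vehicle. In E2+3-MC minus 3-MC, 8.21% were called, with 1.39% lower. Summed adipocyte markers spanned 2220 to 14100 in vehicle rats and 2480 to 2640 in E2 rats, and 5 of the 6 tested fell in E2. The other, Adipoq, had means of 1020 in vehicle and 1940 in E2 (1.49 ± 0.73, not called). With 3-MC present it was called higher after estradiol (3.04 ± 0.73, adjusted p = 0.0141). The part of the adipocyte markers in the results was not tested. The uterus was checked against its markers: all 10 stroma and smooth muscle markers and all 9 measured epithelial markers were above the dim limit. Of the 4 measured granulosa cell markers, Fshr and Inha were dim in these tissues, and Amh and Star were above the dim limit. The means of Amh and Star in vehicle rats were 105 and 185. Star was called lower in E2 (-0.77 ± 0.22, adjusted p = 0.0227) and Amh was not called. In whole tissue, fewer cells of a type and less RNA per cell cannot be told apart.

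The promoters of 6 members are shown. Of these genes, 3 fell after estradiol (Foxa2, Foxp1 and Foxj2), and Foxj3 and Sox6 are the closest measured relatives of genes that fell. Foxo1, like Sox7, lay above 0 in E2 minus vehicle without being called. Each is the 250 bases upstream of the RefSeq transcript start in assembly GRCr8, read 5′ to 3′ on the gene's strand. Capitals mark the estrogen half-site GGTCA and the AhR core GCGTG, in either orientation. The half-site is also contained in each arm of a full estrogen response element.

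Foxa2: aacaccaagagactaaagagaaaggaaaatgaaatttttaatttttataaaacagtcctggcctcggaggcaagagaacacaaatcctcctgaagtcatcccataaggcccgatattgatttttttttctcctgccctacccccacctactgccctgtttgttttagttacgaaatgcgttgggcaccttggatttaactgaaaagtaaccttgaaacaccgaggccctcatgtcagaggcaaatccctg

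Foxp1: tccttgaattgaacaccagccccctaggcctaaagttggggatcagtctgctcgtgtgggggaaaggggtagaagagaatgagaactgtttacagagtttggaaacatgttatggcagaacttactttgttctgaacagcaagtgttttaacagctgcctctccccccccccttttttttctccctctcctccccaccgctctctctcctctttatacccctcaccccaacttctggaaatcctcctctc

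Foxj2: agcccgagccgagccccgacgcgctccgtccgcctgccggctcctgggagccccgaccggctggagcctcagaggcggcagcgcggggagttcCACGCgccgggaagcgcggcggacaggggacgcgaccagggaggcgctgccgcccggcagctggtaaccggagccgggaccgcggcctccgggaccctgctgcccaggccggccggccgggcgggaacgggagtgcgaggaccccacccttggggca

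Foxj3: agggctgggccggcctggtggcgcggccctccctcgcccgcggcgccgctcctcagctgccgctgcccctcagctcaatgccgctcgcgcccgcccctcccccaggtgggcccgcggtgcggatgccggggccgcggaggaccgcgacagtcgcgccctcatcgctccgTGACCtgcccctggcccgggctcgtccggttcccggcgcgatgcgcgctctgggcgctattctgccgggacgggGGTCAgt

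Sox6: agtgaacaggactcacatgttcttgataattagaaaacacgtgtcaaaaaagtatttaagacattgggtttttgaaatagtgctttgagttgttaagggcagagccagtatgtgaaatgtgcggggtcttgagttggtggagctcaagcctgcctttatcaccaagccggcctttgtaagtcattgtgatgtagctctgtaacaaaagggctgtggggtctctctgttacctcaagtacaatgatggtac

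Foxo1: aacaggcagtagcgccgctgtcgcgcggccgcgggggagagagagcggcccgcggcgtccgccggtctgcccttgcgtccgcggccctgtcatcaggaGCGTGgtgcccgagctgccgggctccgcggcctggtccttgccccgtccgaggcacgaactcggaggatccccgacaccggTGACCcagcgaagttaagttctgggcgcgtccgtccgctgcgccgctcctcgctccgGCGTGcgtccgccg

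These windows lie at chr3:155927509-155927758 on the minus strand (Foxa2), chr4:133353281-133353530 on the minus strand (Foxp1), chr4:157719009-157719258 on the plus strand (Foxj2), chr5:138425913-138426162 on the plus strand (Foxj3), chr1:179665372-179665621 on the minus strand (Sox6) and chr2:138462724-138462973 on the plus strand (Foxo1). RefSeq windows matched 27 of the 43 members. A half-site was present in 11 of those 27 windows (40.7%), against 35.4% of 33469 RefSeq windows of the same length, and the AhR core in 9 (33.3%) against 25.9%. The full element, GGTCA and TGACC with 3 bases between them, was in none of the 27 and in 0.0239% of all windows. The forkhead core TGTTTAC was in 1, Foxp1 (3.7%), against 3.21%, and the Sox core AACAAT in 2 (7.41%), against 10.3%. The member windows had a median GC content of 63.6%, against 51.2% over all windows, and held the GC-rich Sp1 box GGGCGG in 55.6% against 30.5%. The Foxa2, Foxp1 and Sox6 windows held no half-site and no AhR core. A match is a stretch of letters, not a bound site.

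The first comparison was of E2 with vehicle, the response to estradiol alone. Of the 27 tested Fox and Sox genes, 6 fell and none rose: Foxa2, Foxj2, Foxp1, Sox5, Sox10 and Sox18. That is 22.2% called, against 18.1% of all 10154 genes tested, or 9.44% called lower and 8.7% called higher. The median log2 difference was -0.41 for the 27 genes and -0.11 for all genes tested, and 25 of the 27 were below 0. The E2 and vehicle rats did not overlap for 10 members, all lower in E2, against 17.1% of all tested genes lower without overlap. After quantile normalization 11 members were called lower and none higher, 40.7% against 38.4% of all genes (19.4% lower), with medians of -0.26 and -0.03; Foxj3, Foxk1, Foxn3, Sox4 and Sox17 were added. The count of 6 rested on individual rats: it was 0 without E2 rat 2 or E2 rat 3, where 11.4% and 9.84% of all genes were called (4.33% and 4.07% lower). It was 3 without each 3-MC rat in turn or without E2+3-MC rat 1 (15.1% to 15.6% of all genes), and 4 without E2 rat 1 (17.5%). Without vehicle rat 1 it was 8, of which 7 were lower and 1 higher (Foxo1), against 34.9% of all genes called, and 23 of the 27 members were below 0.

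**Figure D1:**
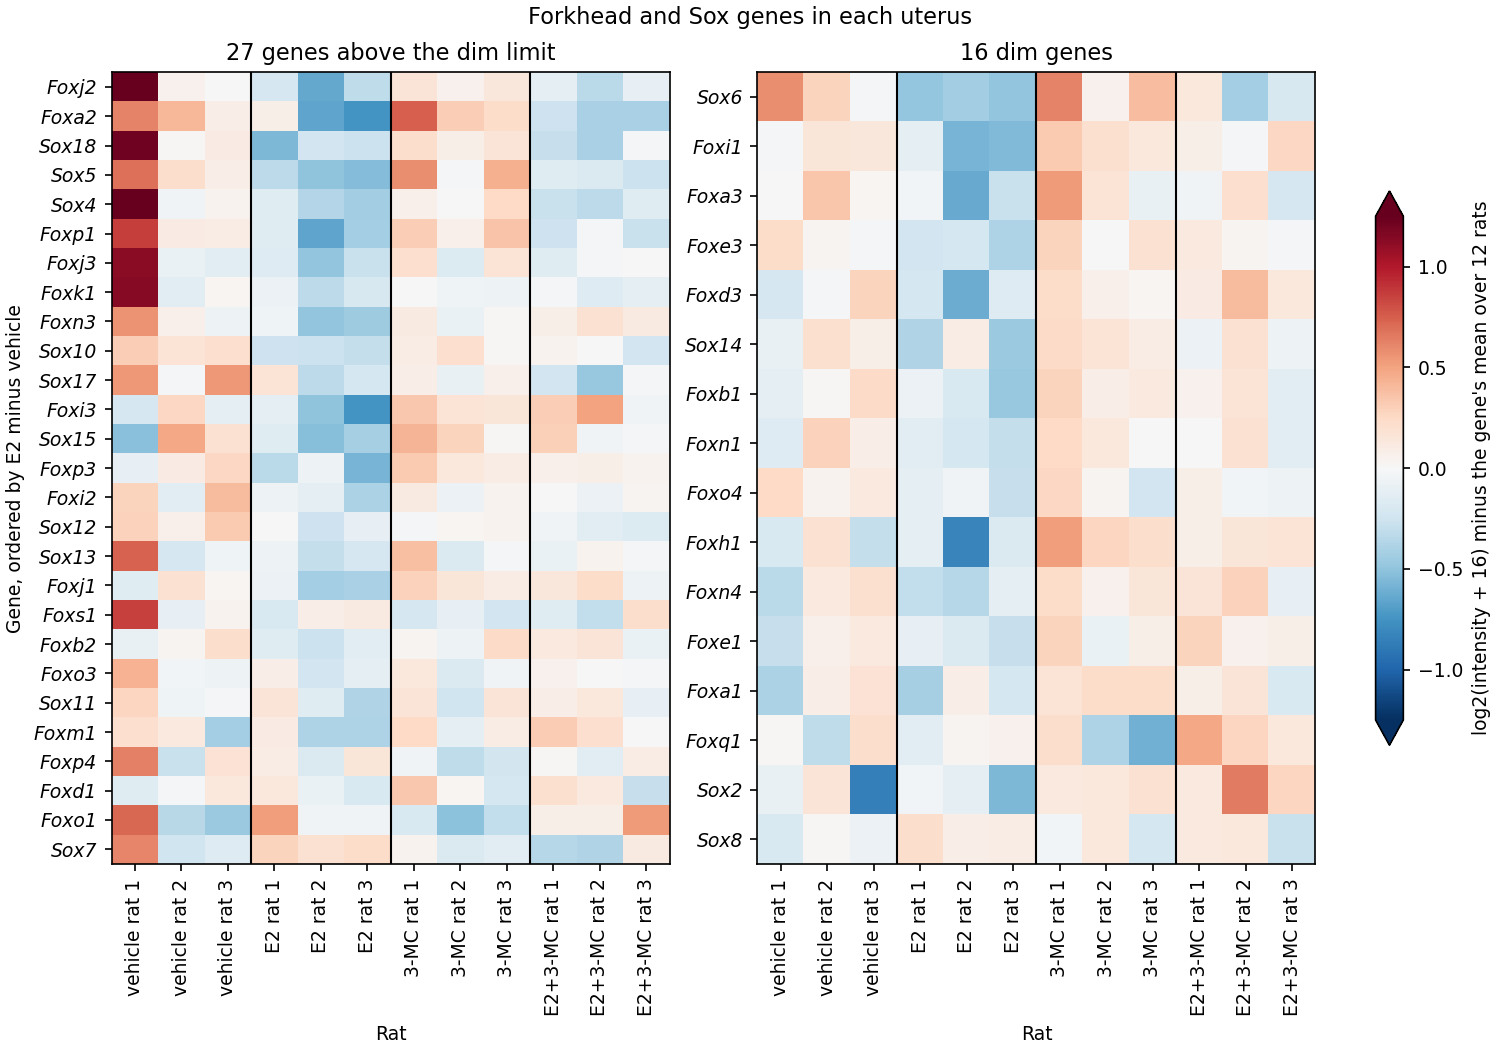
Each row is a Fox or Sox gene and each column a rat; colour is log2(intensity + 16) minus the gene's own mean over the 12 rats, with colours saturating at the ends of the bar, and black lines separate vehicle, E2, 3-MC and E2+3-MC. The left panel holds the 27 tested genes, of which 16 are highest in vehicle rat 1 and 25 have a lower mean in E2 than in vehicle; the right panel holds the 16 dim genes.

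Foxa2, the gland factor, was the member called in both estradiol comparisons. Its intensity was 174, 149 and 115 in the vehicle rats, 114, 62.1 and 57.6 in the E2 rats, 192, 137 and 129 in the 3-MC rats, and 87.7, 77.5 and 77.7 in the E2+3-MC rats. The E2 rats lay below the vehicle rats, E2 rat 1 narrowly (114 against 115), and the E2+3-MC rats lay below the 3-MC rats. The log2 difference was -0.82 ± 0.23 (SE) for E2 minus vehicle, 1.76-fold lower (adjusted p = 0.0217), and -0.78 ± 0.23 for E2+3-MC minus 3-MC (adjusted p = 0.0471). The vehicle call held in 9 of 12 fits that left out a rat, and the other held in 3 of 12. Of its relatives, Foxa1 and Foxa3 were dim. Among 9 tested gland genes linked to FOXA2, 3 rose and 4 fell after estradiol, with a median of 0.55 against -0.11 over all genes. With 3-MC present 3 rose and 1 fell, with a median of 0.53 against 0.08, and after quantile normalization 5 rose and 3 fell. After estradiol alone Lif, the implantation cytokine, rose by 1.97 ± 0.25, Prom1 by 2.92 ± 0.30 and Sult1d1 by 1.96 ± 0.29, while Aldh1a1, a retinaldehyde dehydrogenase, fell by 2.86 ± 0.24. Epithelial markers moved the other way from Foxa2: 6 of 9 rose and none fell, and their summed intensity was 3190 to 7220 in vehicle rats and 13700 to 16300 in E2 rats. The part of epithelial content in the Foxa2 difference was not tested.

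In the SoxD group, Sox5, a cofactor of cartilage and stromal programs, fell. Its intensity was 253, 178 and 161 in vehicle, 117, 102 and 98.5 in E2, 234, 148 and 211 in 3-MC, and 134, 131 and 123 in E2+3-MC. Both estradiol groups lay below both groups without estradiol, with no overlap. The log2 difference was -0.79 ± 0.21 for E2 minus vehicle (1.73-fold lower, adjusted p = 0.0137), and the call held in 10 of 12 fits without a rat. With 3-MC present it was -0.54 ± 0.21, which did not pass (adjusted p = 0.14) but passed after quantile normalization (-0.62, adjusted p = 0.00146). It also passed without vehicle rat 1, a rat in neither of these groups (-0.54 ± 0.16, adjusted p = 0.02). Sox6, its dim partner, had intensities of 101, 78.4 and 61.3 in vehicle and 39.9, 41.9 and 39.3 in E2, without overlap. With 3-MC they were 104, 65 and 85.8, and with both compounds 69.7, 42 and 51.9, which overlap. Tested without the filter on dim genes, the Sox6 difference of -0.75 ± 0.20 was called for E2 minus vehicle (adjusted p = 0.0215) and that with 3-MC present, -0.52 ± 0.20, was not (adjusted p = 0.182). Sox13 differed by -0.35 ± 0.23 and was not called. Among 12 tested cartilage targets of SoxE and SoxD, 1 fell (Runx2, the bone and cartilage factor, by 0.73 ± 0.20) and none rose. With 3-MC present none was called, and after quantile normalization 2 fell.

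Foxp1, a repressor that acts in lymphocytes and heart, fell. Its intensity was 1230, 721 and 714 in vehicle, 602, 419 and 496 in E2, 835, 699 and 860 in 3-MC, and 557, 657 and 551 in E2+3-MC. All 6 estradiol rats lay below the other 6. The difference was -0.76 ± 0.22 (1.69-fold lower, adjusted p = 0.0251) for E2 minus vehicle, called in 10 of 12 fits without a rat; without vehicle rat 1 it was -0.51 ± 0.18 and still called (adjusted p = 0.0316). For E2+3-MC minus 3-MC it was -0.43 ± 0.22 (adjusted p = 0.312), and quantile normalization made it -0.75 (adjusted p = 7.57e-04). Foxp3, the factor of regulatory T cells, sat just above the dim limit (mean 6.51 against 6.44) and differed by -0.41 ± 0.19 without being called. Summed T cell markers spanned 573 to 933 in vehicle and 532 to 731 in E2, and 0 of the 4 tested T cell markers passed in either direction. Foxp4 differed by -0.16 ± 0.22 and was not called.

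Foxj2 and Foxj3, broadly expressed forkhead activators, were both lower in every E2 rat than in any vehicle rat, and Foxj2 was called. Foxj2 intensity was 1320, 540 and 518 in vehicle, 448, 327 and 415 in E2, 583, 541 and 576 in 3-MC, and 477, 409 and 485 in E2+3-MC. The difference was -0.84 ± 0.27 (1.79-fold lower, adjusted p = 0.0421). Vehicle rat 1 decided its size: without it the difference was -0.41 and not called (adjusted p = 0.066). The call held in 4 of 12 fits without a rat and was lost with median centring (adjusted p = 0.0692) and with an offset of 64 (adjusted p = 0.0578). After quantile normalization the difference was -0.87 (adjusted p = 1.52e-04). For E2+3-MC minus 3-MC it was -0.30 ± 0.27 and not called (adjusted p = 0.636); quantile normalization made it -0.57 (adjusted p = 0.00504). Foxj3 was 1090, 461 and 447 in vehicle and 436, 345 and 403 in E2, with a difference of -0.61 ± 0.27 that was not called (adjusted p = 0.124). It was called after quantile normalization (adjusted p = 0.00182) and in 1 of 12 fits without a rat. Foxk1, a regulator of autophagy and metabolism, and Foxn3, a cell cycle checkpoint repressor, differed by -0.55 ± 0.26 and -0.52 ± 0.20, were not called on the deposited scale, and were called after quantile normalization (adjusted p = 0.0112 and 0.00179). Leaving out a rat gave a call for Foxn3 in 2 of 12 fits and for Foxk1 in none. Without vehicle rat 1 the differences were -0.20 for Foxj3, -0.15 for Foxk1 and -0.33 for Foxn3, none called. The second Foxn3 probe set differed by -0.55.

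Foxj1, the cilia regulator, differed by -0.32 ± 0.18 and was not called. Of 5 tested motile cilia genes downstream of it, 3 fell and none rose, with a median of -0.81 against -0.11 over all genes. With 3-MC present none of the 5 was called, with a median of -0.40 against 0.08, and after quantile normalization 3 fell. For estradiol alone the log2 differences were -0.98 ± 0.22 for Tekt1 and -0.81 ± 0.19 for Ccdc39, both structural genes of cilia, and -0.81 ± 0.22 for Rfx2, itself a cilia transcription factor. Only 5 of the 15 measured genes of that list were above the dim limit. The summed ciliated cell markers were 468 to 552 in vehicle and 271 to 385 in E2. Of the 6 markers summed, only Tekt1 and Ccdc39 were above the dim limit, so the sum is not separate from the genes just named. Among the dim ones, the mean of Rsph1 was higher in E2 (70.1 against 49.5), and those of Tekt2, Hydin and Spag6 were lower. The part of ciliated cell content in the Foxj1 value was not tested.

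**Figure D2:**
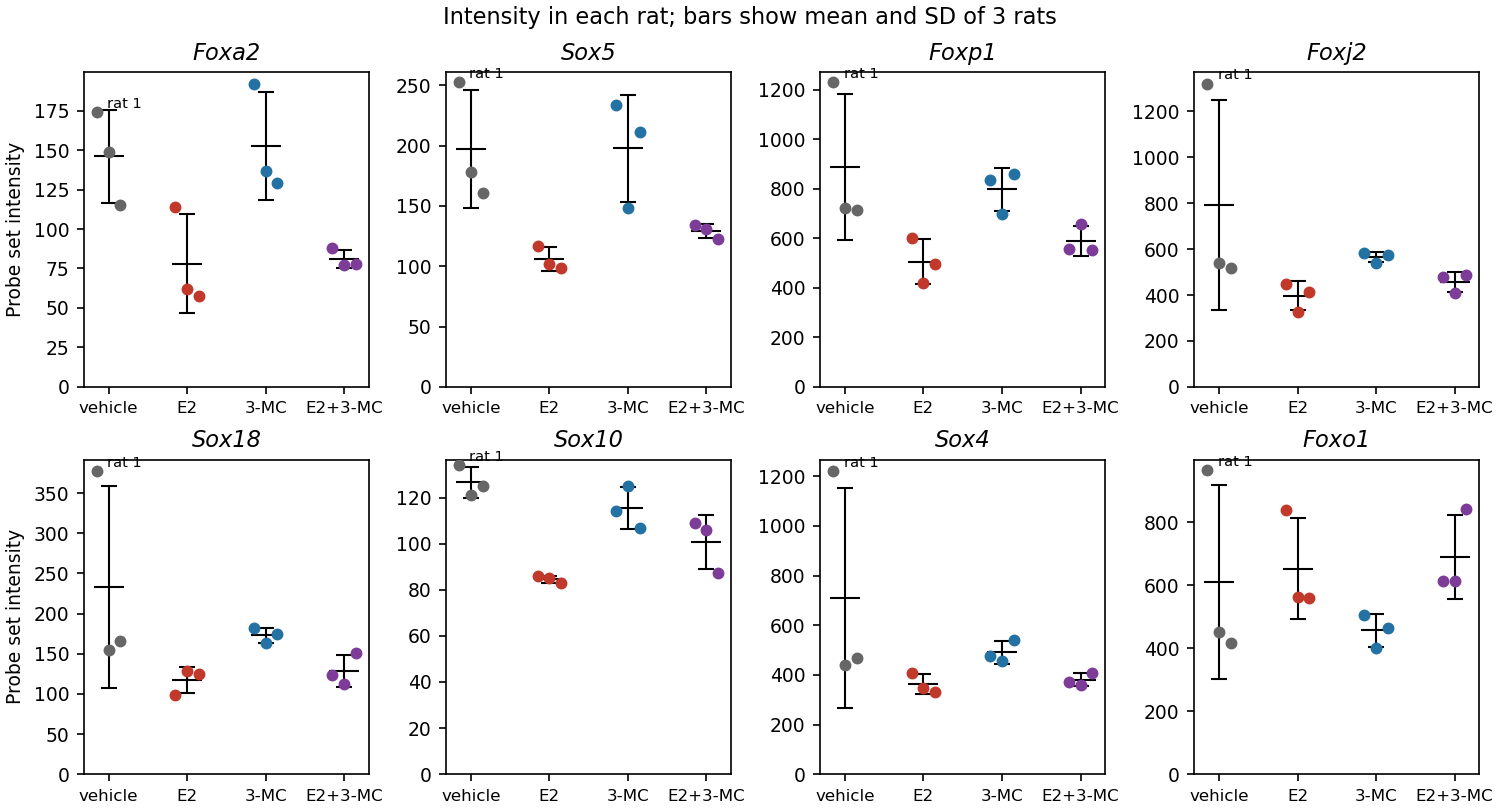
Intensity of 8 Fox and Sox genes in each rat, by group, with bars for the mean and SD of 3 rats and the axis starting at 0; vehicle rat 1 is labelled. For Foxj2, Sox18 and Sox4 vehicle rat 1 stands far above the other vehicle rats, and in all panels but Foxo1 the vehicle and E2 rats do not overlap.

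In the SoxF group Sox18 was called and Sox17 and Sox7 were not. Sox18, which acts in lymphatic and blood vessel development, had intensities of 378, 155 and 166 in vehicle, 99, 128 and 125 in E2, 182, 163 and 174 in 3-MC, and 123, 112 and 151 in E2+3-MC. The estradiol rats lay below the others, and the difference was -0.80 ± 0.26 (1.74-fold lower, adjusted p = 0.0414). The call held in 4 of 12 fits without a rat; without vehicle rat 1 the difference was -0.41 (adjusted p = 0.0679). It was also lost with median centring (adjusted p = 0.0935) and with an offset of 64 (adjusted p = 0.0645). With 3-MC present the Sox18 difference was -0.39 ± 0.26 and not called (adjusted p = 0.464), nor was it after quantile normalization (adjusted p = 0.083). Sox17 was 641, 431 and 643 in vehicle and 492, 344 and 372 in E2, which overlap; its difference of -0.48 ± 0.21 was not called (adjusted p = 0.122), and was called after quantile normalization (adjusted p = 0.0328). Sox7 was 271, 142 and 152 in vehicle and 212, 199 and 205 in E2, a difference of 0.17 ± 0.23 that was not called. Whether Sox7 and Sox18 responded differently was not tested. Of 20 tested endothelial partners and targets of SoxF, some of which are endothelial markers too, 12 fell and none rose, with a median of -0.76 against -0.11 over all genes. With 3-MC present 1 fell and none rose, with a median of -0.42 against 0.08, and after quantile normalization 14 fell. For estradiol alone the differences were -1.23 ± 0.24 for Dll4, a Notch ligand of arterial cells, -1.12 ± 0.26 for the tight junction gene Cldn5, -1.02 ± 0.23 for the junction cadherin Cdh5 and -1.01 ± 0.23 for the VEGF receptor Kdr. Summed over 9 endothelial markers, intensity was 2840 to 5260 in vehicle and 1820 to 2020 in E2, and 7 of the 9 fell. The part of endothelial content in the SoxF values was not tested.

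In the SoxC group, which supports progenitor survival, Sox4 had intensities of 1220, 440 and 469 in vehicle, 407, 349 and 333 in E2, 477, 454 and 542 in 3-MC, and 371, 359 and 409 in E2+3-MC. The groups with estradiol lay below those without it, and the difference of -0.78 ± 0.28 missed the threshold (adjusted p = 0.0649). Without vehicle rat 1 it was -0.32 (adjusted p = 0.142), and after quantile normalization -0.79 and called (adjusted p = 8.91e-04). With 3-MC present it was -0.36 ± 0.28 (adjusted p = 0.572); quantile normalization made it -0.58 (adjusted p = 0.00962). Sox12 was 200, 170 and 207 in vehicle, 161, 132 and 149 in E2, 158, 164 and 167 in 3-MC, and 156, 146 and 142 in E2+3-MC. Its estradiol rats lay below their controls in both comparisons without being called (-0.35 ± 0.17 and -0.13 ± 0.17). Sox11 differed by -0.19 ± 0.20. Wnt pathway genes, which act with Sox factors, were counted from a separate list. Of 24 tested, 11 fell after estradiol and none rose, with a median of -0.76 against -0.11 over all genes. With 3-MC present 1 fell and none rose, with a median of -0.22 against 0.08, and after quantile normalization 11 fell and 1 rose. For estradiol alone the differences were -3.51 ± 0.29 for Wif1, a secreted Wnt inhibitor, -1.63 ± 0.29 for the stem cell receptor Lgr5, -1.55 ± 0.21 for the ligand Wnt2 and -1.54 ± 0.31 for the inhibitor Sfrp1.

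Sox10, the Schwann cell factor, was the SoxE gene called. Its intensity was 134, 121 and 125 in vehicle, 85.8, 85 and 83 in E2, 114, 125 and 107 in 3-MC, and 109, 106 and 87.1 in E2+3-MC. The E2 rats were tightly grouped below all vehicle rats, and the difference was -0.50 ± 0.17 (1.42-fold lower, adjusted p = 0.0477). The call sits at the threshold: it held in 1 of 12 fits without a rat and was lost with median centring (adjusted p = 0.103), while the difference stayed between -0.53 and -0.47. With 3-MC present the rats overlapped, and the Sox10 difference of -0.17 ± 0.17 was not called (adjusted p = 0.675). Quantile normalization did not change that (adjusted p = 0.299). Sox8, the relative of Sox10, was dim. Of 10 tested SOX10 targets in Schwann cells, 2 rose (Ngfr by 1.24 ± 0.22 and Erbb3 by 1.12 ± 0.22) and 1 fell (Gap43 by 1.23 ± 0.35), and with 3-MC present 2 rose and 1 fell. Ngfr and Erbb3 are receptors that other cells also make. Summed Schwann cell markers were 505 to 2030 in vehicle and 561 to 727 in E2. The 5 tested markers (S100b, Erbb3, Ngfr, Mbp and Gap43) are all among the targets just counted, so the sum is not separate from them. S100b had means of 467 in vehicle and 49.5 in E2 (-2.09 ± 0.73) and was not called (adjusted p = 0.0575). The part of Schwann cell content in the Sox10 value was not tested.

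Foxo1 and Sox7 were the 2 tested members above 0 in E2 minus vehicle. Foxo1 intensity was 966, 451 and 415 in vehicle, 838, 561 and 560 in E2, 505, 400 and 464 in 3-MC, and 612, 612 and 842 in E2+3-MC. The vehicle and E2 rats overlapped through vehicle rat 1, whereas each E2+3-MC rat lay above each 3-MC rat. The differences were 0.17 ± 0.27 and 0.57 ± 0.27, neither called (adjusted p = 0.701 and 0.266). Without vehicle rat 1 both were called, at 0.55 ± 0.20 (adjusted p = 0.0339) and 0.57 ± 0.18 (adjusted p = 0.0236). The sign for E2 minus vehicle turned without vehicle rat 3 or without E2 rat 1. Foxo3 differed by -0.21 ± 0.19, and Foxo4 was dim. Of 24 tested FOXO targets, 2 rose and 7 fell after estradiol, with a median of -0.22 against -0.11 over all genes. With 3-MC present 2 rose and none fell, with a median of 0.22 against 0.08, and after quantile normalization 3 rose and 2 fell. After estradiol alone Cdkn1a, a cell cycle inhibitor, rose by 2.24 ± 0.32 and Sod2, a mitochondrial superoxide dismutase, by 1.65 ± 0.29, while the differences of the apoptosis ligand Tnfsf10 and of Klf15, a metabolic regulator, were -1.20 ± 0.27 and -1.15 ± 0.24.

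Foxm1, the proliferation factor, had mean intensities of 150 ± 36.9 (SD, n = 3) in vehicle, 129 ± 29.4 in E2, 161 ± 22.4 in 3-MC and 174 ± 20.2 in E2+3-MC, and was called in no comparison. Of its cell cycle targets, 3 of 14 rose and 1 fell after estradiol alone, with a median of 0.34 against -0.11 over all genes. When 3-MC was present 7 of 14 rose and none fell, with a median of 0.98 against 0.08, and after quantile normalization 10 rose. Cdk1, the kinase of mitotic entry, rose by 2.12 ± 0.28 and 2.41 ± 0.28 in these comparisons, and the kinesin Kif23 by 1.77 ± 0.32 and 2.08 ± 0.32. Cdc25b, which activates CDK1, fell by 0.69 ± 0.17 after estradiol alone.

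The other tested members were not called in E2 minus vehicle. Their differences were -0.43 ± 0.21 for Foxi3, -0.42 ± 0.24 for Sox15, -0.37 ± 0.19 for Foxi2, -0.27 ± 0.23 for Foxs1, -0.24 ± 0.18 for Foxb2 and -0.03 ± 0.20 for Foxd1. Without vehicle rat 1, Foxi3, Foxp3 and Sox15 were called lower (adjusted p = 0.0479, 0.028 and 0.00509). The 16 dim genes were Foxa1, Foxa3, Foxb1, Foxd3, Foxe1, Foxe3, Foxh1, Foxi1, Foxn1, Foxn4, Foxo4, Foxq1, Sox2, Sox6, Sox8 and Sox14. They had intensities from 11 to 111 and differences from -0.75 to 0.22, and at this brightness a change would be understated. Of these, 5 were lower in E2 than in vehicle without overlap, against 22.4% of all 4352 dim genes, and 1, Sox8, was higher, against 2.92%. After quantile normalization 2 (Foxi1 and Sox6) were lower, against 12.9%, and Sox8 was higher, against 8.18%. Foxo4 and Foxd3 lay just below the limit (6.41 each). Hedgehog genes, which act upstream of other forkhead genes not analysed here, were counted from a separate list that also holds other genes. Of 11 tested, 5 fell and 1 rose after estradiol alone, with a median of -0.83 against -0.11 over all genes. Gli1, a target and effector of the pathway, differed by -2.61 ± 0.23. The gene that rose was Hsd11b2 (3.16 ± 0.34), a glucocorticoid-inactivating enzyme and not a component of the pathway. With 3-MC present 1 fell and 1 rose, and after quantile normalization 4 fell and 1 rose.

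The second estradiol comparison, E2+3-MC minus 3-MC, used none of the same rats and asks for the response with an AhR ligand present. One member was called, Foxa2, which is 3.7% of the 27, against 8.21% of all genes (1.39% lower). The members' median was -0.08, beside 0.08 for all genes. Without overlap, 8 members were lower, against 11.6% of all genes, and 1 (Foxo1) was higher, against 25.7%. After quantile normalization 6 were called lower, Foxa2, Foxj2, Foxj3, Foxp1, Sox4 and Sox5, against 26.1% of all genes called (12.5% lower). Across the 27 genes the log2 differences of the 2 estradiol comparisons had r = 0.78 and Spearman's rho = 0.76, and 19 shared a sign; over all 10154 genes r was 0.92. These are descriptions across genes, which share libraries and are not replicates.

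**Figure D3:**
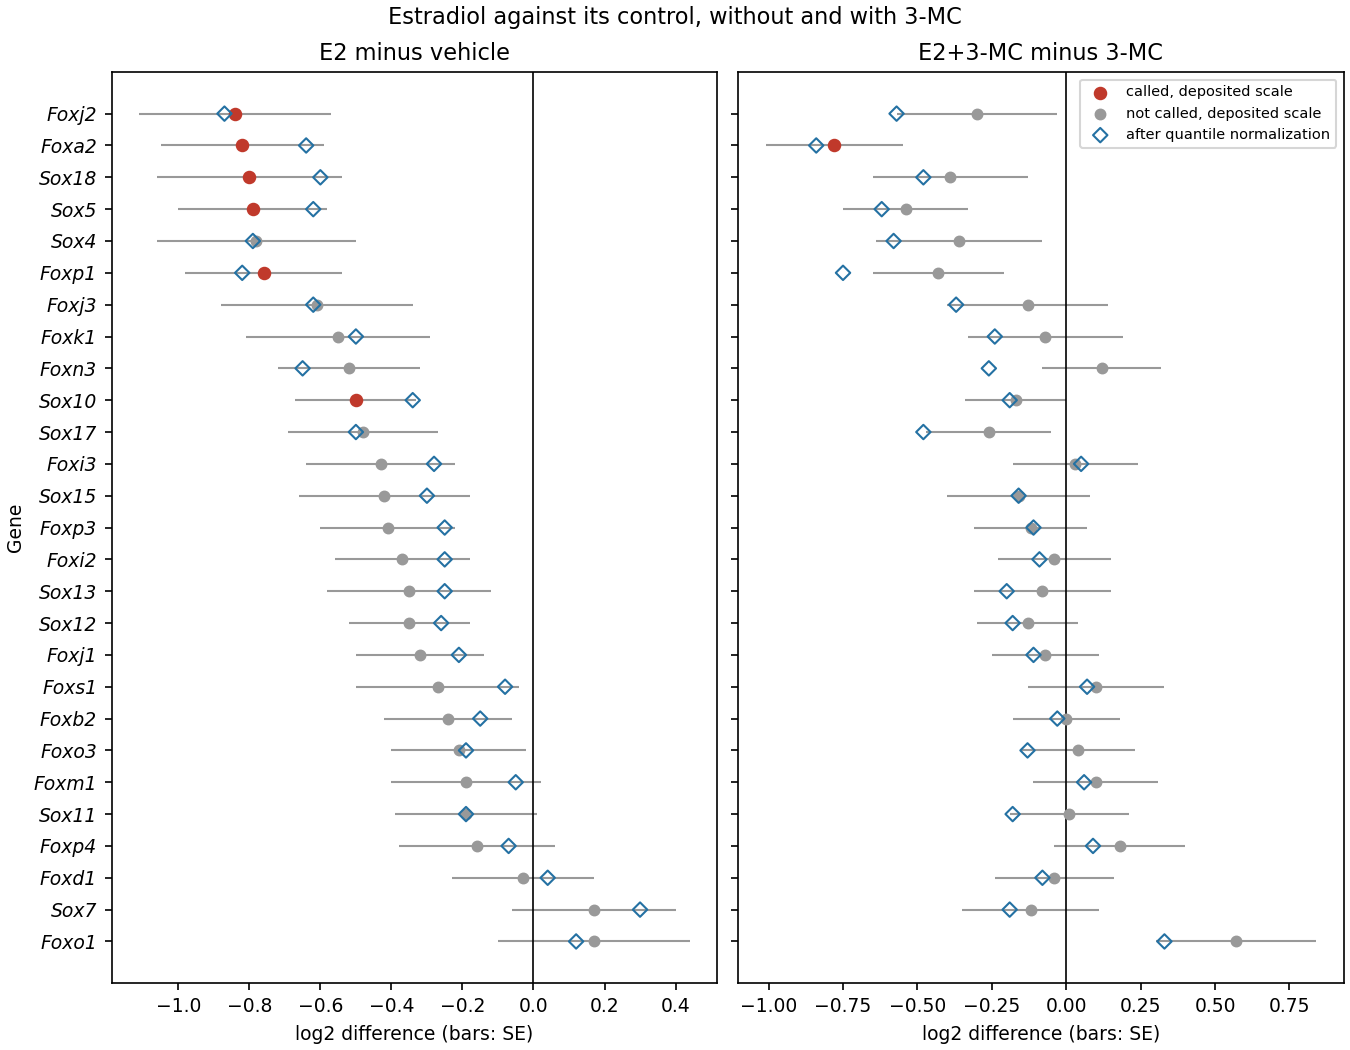
Log2 difference with SE for the 27 tested genes in E2 minus vehicle (left) and E2+3-MC minus 3-MC (right); red points were called on the deposited scale, grey were not, and open diamonds are quantile-normalized values. Foxa2 is red in both panels, and Foxo1 is the gene farthest above 0 on the right.

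**Figure D4:**
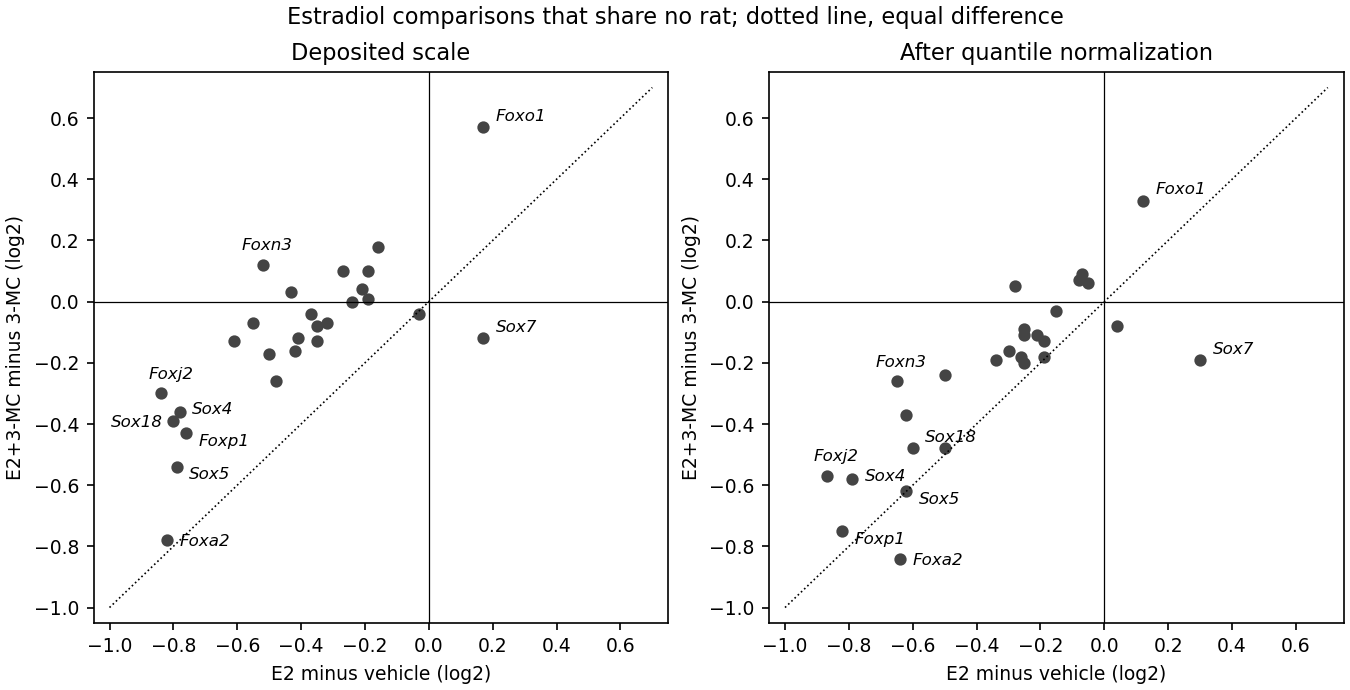
The 27 tested genes placed by their 2 estradiol differences, on the deposited scale (left) and after quantile normalization (right), with a dotted line of equal difference. Most points lie above the dotted line on the left, where the medians over all genes tested were -0.11 on the horizontal and 0.08 on the vertical axis; Foxa2 lies near the line.

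No Fox or Sox gene was called in 3-MC minus vehicle, where limma called 0 of all genes (0%), 82 at an unadjusted p under 0.05 and no member among them; after quantile normalization 0 members and 0% of all genes were called. In E2+3-MC minus E2, 0 members and 0% of all genes were called, with 3 members and 937 genes at an unadjusted p under 0.05. There 9 members were higher without overlap, against 16.7% of all genes, and 1 (Sox7) was lower, against 1.17%. After quantile normalization 2 were higher, against 9.57%, and 4 (Foxp4, Sox7, Sox12 and Sox17) were lower, against 13%. The medians of the E2 arrays (86.3 to 108) lay below those of the E2+3-MC arrays (110 to 118). Foxi3 was the largest of these, at 0.71 ± 0.21. In E2+3-MC minus vehicle, 0 members were called against 7.84% of all genes (1.78% lower), with 7 members at an unadjusted p under 0.05; after quantile normalization 11 were called lower, 40.7% against 26.1% of all genes (13.3% lower). Those 11 were Foxa2, Foxj2, Foxj3, Foxk1, Foxp1, Sox4, Sox5, Sox10, Sox12, Sox17 and Sox18. In that comparison Foxa2 differed by -0.73 ± 0.23 on the deposited scale (adjusted p = 0.0702). After quantile normalization its difference was -0.81 (adjusted p = 0.00147). The interaction, which tests whether the estradiol response depends on 3-MC, was called for 0 members and 0% of all genes, with 1 member, Foxn3 (0.64 ± 0.28), and 298 genes at an unadjusted p under 0.05. For no member, then, did the test show that the estradiol responses without and with 3-MC differed.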

How the data were processed

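Uterine RNA of 12 rats was hybridised as biotinylated cRNA. The authors summarised probe sets as linear intensity values with Affymetrix Expression Console and PLIER, per the submitters' processing notes; whether arrays were normalized to each other is not stated there. Symbols came from the platform annotation; 15310 of 29214 probe sets had 1 symbol, and 1 further member symbol, Foxk2, lay only on a shared probe set and was left out. Values were used as log2(intensity + 16). The dimmest 30% of genes by mean were left out, and 10154 were fitted in limma 3.58.1 (R 4.3.3) with 1 mean per group over all 12 arrays, tested on simulated data. P-values are two-sided, adjusted by Benjamini-Hochberg over all genes tested, and called under 0.05; ± is the SE of a difference unless SD is named. Members and lists were chosen with earlier results of these data known. Values of each rat were given for members called in an estradiol comparison or separate in both, and for Foxj3, Foxo1, Sox6, Sox7 and Sox17, chosen after their values were seen. List genes named are up to 4 with the largest change. The number of arrays limits the precision.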

Additional observations from a re-analysis of the deposited data

How the results depend on the processing

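In the order E2 minus vehicle, E2+3-MC minus 3-MC and E2+3-MC minus vehicle, 6, 1 and 0 members were called on the deposited scale. Quantile normalization gave 11, 6 and 11, all lower, where 38.4%, 26.1% and 26.1% of all genes were called. Chosen after seeing the data, it was also run without vehicle rat 1. That gave 15, 9 and 13, with 1 higher in each of the first pair, where 46% and 34% of all genes were called. For the settings that follow, the share of all genes called is not given, so their counts cannot be read as particular to these members. Median centring gave 3, 2 and 4. An offset of 64 gave 3 in the first and 0 in the second. The second was also 0 with no filter on dim genes or with the lowest 50% left out. Fitting only the groups compared gave 0 in the first and 4 in the second, where fewer arrays estimate the spread. Trend and robust options gave 1 in the third. Leaving out each rat gave 0 to 8, 0 to 3 and 0 to 2. Replicate numbers are not stated to pair rats. Deviations of same-numbered rats correlated at -0.27 to 0.24, with 8 of 18 over 0.1, and 2 of 12 arrays were closest to their own number. Correlations of this size show no clear pairing and cannot exclude one. With the number as a replicate block, 8, 1 and 2 were called. Reversals were sought among members called in the comparison concerned, on either scale or without vehicle rat 1. There the direction reversed for Foxj3 in E2+3-MC minus vehicle without vehicle rat 1 (0.05, where leaving out each rat gave -0.58 to 0.05). It also reversed for Foxo1 in E2 minus vehicle without vehicle rat 3 (-0.04) or E2 rat 1 (-0.01). Leaving out each rat gave -0.04 to 0.55 for Foxo1. Members not called in a comparison also turned, and only some are named here. In E2 minus vehicle, Foxp4 (0.07) and Foxs1 (0.02) turned without vehicle rat 1, and Foxd1 (0.04) with quantile normalization. In E2+3-MC minus 3-MC, quantile normalization turned Foxn3 (0.12 to -0.26), Foxo3 (0.04 to -0.13) and Sox11 (0.01 to -0.18). In E2+3-MC minus E2 it turned several, among them Foxa2 (0.09 to -0.17). The cause of these changes was not tested. 3-MC minus vehicle, E2+3-MC minus E2 and the interaction called 0 members under every alternative run. The median SE of a difference was 0.22 with 3 rats per group.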
